A study of Mus musculus with 2 samples.

Results

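The mitochondrial chromosome of the mouse carries 37 genes, and all 37 have an entry in both deposited gene tables. They were chosen by position: every entry whose identifier, without its version, is annotated on chromosome M by GENCODE, which gave 13 mRNAs, 2 rRNAs and 22 tRNAs of 43346 genes in all. The tissue was the embryonic facial prominence of strain B6NCrl at embryonic day 11.5, the swellings around the primitive mouth that form the face. Total RNA was sequenced in 2 libraries of 1 group, each made from its own pooled embryos of both sexes (109 for library 1, 88 for library 2), from 10 ng of RNA above 200 nt with spike-in RNAs added. No treated, mutant or older group belongs to the series, so no test between conditions was made, and what follows gives levels, read sharing and the ratio of library 2 to library 1.

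The mitochondrial genome is copied into long transcripts from each of its strands, and these are cut, mostly at the tRNAs between the genes, into rRNAs, tRNAs and mRNAs. The mRNAs encode core subunits of complexes I, III and IV of the respiratory chain and of the ATP synthase, complex V, whose other subunits come from nuclear genes. The rRNAs and tRNAs serve the ribosome inside the organelle that translates these mRNAs. Stretches of mitochondrial DNA have also been inserted into nuclear chromosomes during evolution, and a read from such a stretch can be identical to one from the organelle.

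Among these genes, 7 of the 13 mRNAs have an annotated nuclear copy in 1 stretch of chromosome 1. The stretch, chr1:24611535-24616197 on GRCm38, minus strand, holds 7 unprocessed pseudogenes in the same order as the mitochondrial genes: the end of mt-Co1 (Gm29216), then mt-Co2 (Gm28661), mt-Atp6 (Gm10925), mt-Co3 (Gm28437), mt-Nd3 (Gm28438), mt-Nd4l (Gm10222) and the start of mt-Nd4 (Gm28439). The 3′ ends of 3 gene and copy pairs are printed to show how little separates them, with capitals for the bases of the mitochondrial gene that the annotated copy lacks. The sequences were read 5′ to 3′ from the GENCODE M21 transcripts on GRCm38.
mt-Co3, chrM:9331-9390: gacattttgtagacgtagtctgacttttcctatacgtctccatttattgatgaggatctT
Gm28437, chr1:24613189-24613247: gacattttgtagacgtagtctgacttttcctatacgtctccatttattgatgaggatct
mt-Atp6, chrM:8548-8607: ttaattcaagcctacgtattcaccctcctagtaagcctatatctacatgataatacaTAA
Gm10925, chr1:24613974-24614030: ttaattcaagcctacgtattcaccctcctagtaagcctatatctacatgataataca
mt-Co2, chrM:7637-7696: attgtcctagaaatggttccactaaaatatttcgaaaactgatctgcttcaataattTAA
Gm28661, chr1:24614885-24614941: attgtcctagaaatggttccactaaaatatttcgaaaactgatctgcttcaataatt
The copies of mt-Co3, mt-Atp6 and mt-Co2 matched their counterpart at every base from its first, over 783, 678 and 681 bases, and ended 1, 3 and 3 bases before it. For mt-Atp6 and mt-Co2 the bases beyond the end of the annotated copy are the TAA stop codon. For mt-Co3 the base beyond it is a lone T, which in the mitochondrial mRNA the poly(A) tail completes to a stop codon. These ends are those of the annotation, and the chromosome 1 sequence between the annotated copies was not examined.

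mt-Nd3 has 348 bases and its annotated copy 345, and over the 345 aligned bases the 2 differed at a single base. Their 5′ ends are printed with that base in capitals.
mt-Nd3, chrM:9459-9518: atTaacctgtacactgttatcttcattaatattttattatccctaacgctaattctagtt
Gm28438, chr1:24613060-24613119: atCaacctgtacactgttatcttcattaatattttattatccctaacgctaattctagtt
The difference is T3C, counted from 1 at the first base of mt-Nd3, with the mitochondrial base first. GRCm38 is the sequence of strain C57BL/6J, and the base that the B6NCrl embryos carry there was not examined, since no reads were used here.

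The short genes mt-Nd4l and mt-Atp8 are printed whole. Capitals mark the 3 bases of mt-Nd4l beyond the end of its annotated copy, and the 43 bases that mt-Atp8 shares with the start of mt-Atp6.
mt-Nd4l, chrM:9877-10173: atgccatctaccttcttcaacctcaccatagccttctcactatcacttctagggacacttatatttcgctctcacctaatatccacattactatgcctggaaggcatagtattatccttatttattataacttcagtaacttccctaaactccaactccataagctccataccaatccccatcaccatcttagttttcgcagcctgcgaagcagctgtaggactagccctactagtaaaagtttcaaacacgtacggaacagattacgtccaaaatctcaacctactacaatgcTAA
mt-Atp8, chrM:7766-7969: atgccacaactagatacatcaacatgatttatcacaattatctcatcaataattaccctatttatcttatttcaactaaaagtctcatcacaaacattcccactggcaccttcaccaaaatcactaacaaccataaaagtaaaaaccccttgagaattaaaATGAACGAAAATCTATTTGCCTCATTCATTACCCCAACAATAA
The copy of mt-Nd4l, Gm10222, matched all of its first 294 bases. Only the annotation ends there. Gm10222 (chr1:24612407-24612700) runs into Gm28439 (chr1:24611535-24612410), which matches mt-Nd4 from its first base, and mt-Nd4l overlaps mt-Nd4 by 7 bases. The 3 bases in capitals are therefore present on chromosome 1, within Gm28439. No annotated gene was listed as a copy of mt-Atp8, which lies between mt-Co2 and mt-Atp6. On chromosome 1, 233 bases between the copies of those genes hold no member of the list, and their sequence was not examined.

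None of the 22 tRNAs had a count. Each had an expected count of 0, a level of 0 TPM and an effective length of 0 in both libraries. TPM is transcript abundance per length, scaled to a fixed total in each library, and effective length is the number of positions at which a sequenced fragment can start within a transcript. For the mitochondrial mRNAs and rRNAs it was the annotated length less 99 bases, so a transcript needs at least 100 bases to receive a read. The tRNAs span 59 to 75 bases, 14 on the plus strand and 8 on the minus strand. The longest and the shortest, which read leucine and serine codons, are printed to show what lies below that limit.
mt-Tl1, chrM:2676-2750: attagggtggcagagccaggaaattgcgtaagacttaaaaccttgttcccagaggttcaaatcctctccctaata
mt-Ts2, chrM:11613-11671: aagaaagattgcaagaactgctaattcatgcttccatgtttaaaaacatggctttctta
The zeros are not particular to these genes, since none of the 28403 entries with an effective length of 0, of which 2218 are genes, had a count in either library. The RNA was also selected above 200 nt, per the labels. The values therefore say nothing about the level of the tRNAs, and no upper limit can be drawn from a count of 0 here.

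Both rRNAs were measured, the large one at a higher level per length. mt-Rnr2 (chrM:1094-2675, plus strand), the RNA of the large ribosomal subunit, stood at 2171.95 TPM in library 1 and 2203.36 TPM in library 2, and held 66040 and 68200 expected counts. mt-Rnr1 (chrM:70-1024, plus strand), the RNA of the small subunit, stood at 497.36 and 442.57 TPM, with 8729 and 7907 expected counts. The level of mt-Rnr2 was 4.37 times that of mt-Rnr1 in library 1 and 4.98 times in library 2, so the values of the 2 genes did not overlap. Neither shared a window of 100 bases with any other annotated gene. The sources used here do not say whether rRNA was depleted, so these levels describe the libraries and not the rRNA content of the tissue.

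All 13 mRNAs were detected, which means 1 TPM or more in both libraries, and before any copy is considered their levels ran from 79.4 TPM on average for mt-Nd4l to 6566 TPM for mt-Atp6. By mean level, 4 of the 13 lay among the 50 most abundant genes of the tissue and 8 among the first 200. Taken with the rRNAs, chromosome M genes held 1.35% of the expected counts on genes in library 1 (95% Wilson interval 1.34 to 1.35) and 1.38% (1.37 to 1.38) in library 2. Of TPM they held 2.63% ± 0.106 (SD, n = 2). In bulk tissue, the part of mitochondria-rich cells in such a share and that of mitochondrial RNA per cell cannot be told apart.

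The 2 genes of complex V had the highest levels. Their annotations overlap by 43 bases on the same strand, so the 2 levels do not rest on wholly separate sequence, and whether they come from separate molecules was not tested. mt-Atp6 (chrM:7927-8607), the subunit that forms the proton channel with the rotor ring, stood at 6037.51 TPM in library 1 and 7095.22 TPM in library 2. mt-Atp8 (chrM:7766-7969), a small subunit of the stalk, stood at 5415.71 and 5980.29 TPM. Both values of mt-Atp6 lay above both of mt-Atp8 by these TPM, but by the deposited posterior mean TPM the order was the reverse, with means of 5351 for mt-Atp6 and 5543 for mt-Atp8. The mt-Atp8 level rests on 105 start positions in a gene of 204 bases. Divided by full length in place of effective length, its mean was 3274 in place of 5698 TPM.

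Next came mt-Cytb (chrM:14145-15288), cytochrome b and the single mitochondrial subunit of complex III, with 2631.29 TPM in library 1 and 2722.64 TPM in library 2. Among the 3 genes of cytochrome c oxidase, complex IV, mt-Co1 (chrM:5328-6872), the catalytic subunit, stood at 1572.86 and 1419.12 TPM. mt-Co2 (chrM:7013-7696), which accepts electrons from cytochrome c, stood at 1240.50 and 1451.95 TPM. The ranges of these 2 genes overlapped, so their order differs between the libraries. mt-Co3 (chrM:8607-9390), a structural subunit, had 1186.88 and 874.65 TPM, with both values below those of the other 2.

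The 7 genes of complex I, NADH dehydrogenase, covered the widest range. mt-Nd1 (chrM:2751-3707), at the junction of the membrane arm with the peripheral arm, led with 2130.80 TPM in library 1 and 2168.21 TPM in library 2. mt-Nd4 (chrM:10167-11544), a proton-pumping subunit, followed with 1029.52 and 1058.29 TPM. mt-Nd2 (chrM:3914-4951), another pumping subunit, stood at 550.06 and 577.47 TPM. None of these 3 ranges overlapped another.

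The other complex I genes stood lower. mt-Nd5 (chrM:11742-13565), the pumping subunit at the far end of the membrane arm, had 349.56 and 341.02 TPM. mt-Nd6 (chrM:13552-14070) had 328.18 and 306.98 TPM, and it is the only one of the 13 mRNAs on the minus strand. Its annotation overlaps that of mt-Nd5 by 14 bases on the opposite strand. The sources used here do not say whether counting used strand. Its level can therefore include reads of the opposite strand over the whole gene, not only in the overlap, and their part was not tested. With that limit, the level of mt-Nd5 was 1.07 and 1.11 times that of mt-Nd6.

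mt-Nd3 (chrM:9459-9806), a small subunit beside mt-Nd1 in the complex, had 358.88 TPM in library 1 and 246.79 TPM in library 2. mt-Nd4l (chrM:9877-10173), whose annotation overlaps mt-Nd4 by 7 bases, had 22.77 and 135.98 TPM, from 92.45 and 561.95 expected counts. Its values differed most between the libraries, in proportion, of all 13 mRNAs. In the order of levels over all 13, the ranges of mt-Nd4 and mt-Co3 overlapped, as did those of mt-Nd6 and mt-Nd3, so these neighbours do not differ beyond the spread of the libraries. The range of mt-Nd3 also took in both values of mt-Nd5, 349.56 and 341.02 TPM, so the order of mt-Nd3 and mt-Nd5 differs between the libraries.

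**Figure D1:**
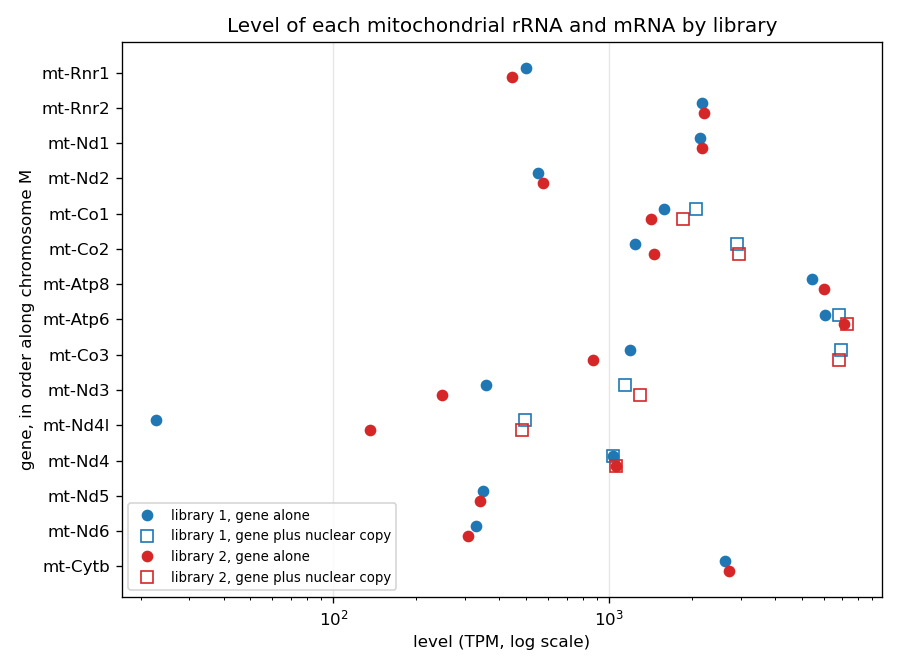
Level in TPM (log axis) of the 15 mitochondrial rRNAs and mRNAs, listed in order along chromosome M, in library 1 (blue) and library 2 (red). Filled circles are the gene alone, open squares the gene plus its nuclear copy on chromosome 1; mt-Co3 moves from about the level of mt-Nd4 to that of mt-Atp6, and the libraries come together at mt-Nd4l.

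How far these levels depend on the division of reads was measured in 2 ways. The first was the share of all 100-base windows of a gene that also occur, letter for letter, in another annotated gene. That share was 99.9% for mt-Co3, 99.5% for mt-Atp6, 99.5% for mt-Co2, 98.5% for mt-Nd4l and 97.6% for mt-Nd3. It was 60.8% for mt-Nd4, whose copy covers only the start of the gene, 30.8% for mt-Co1 and 3.2% for mt-Nd2. Of mt-Co1, 26.3% of windows were shared with Gm29216, the copy of its end, and 5.5% with Gm13340, a pseudogene on chromosome 2. In mt-Nd1, mt-Atp8, mt-Nd5, mt-Nd6 and mt-Cytb no window was shared. No window was shared between any 2 genes of chromosome M.

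The second was the SD that the authors' quantifier deposited with its posterior mean count, here given as a percentage of that mean. It describes the doubt in dividing reads among entries within a library, not the spread between libraries. For mt-Co3 the posterior count was 37482 with an SD of 23499 in library 1, or 62.7%, and 34838 with an SD of 25057 in library 2, or 71.9%. For mt-Nd4l the spread was 55.7% and 33.1%, and for mt-Co2 it was 35.4% and 31.6%. For mt-Nd3 it was 18.6% and 18.4%, and for mt-Atp6 16.6% and 17.3%. These are the 5 mRNAs with over 95% of their windows shared, and they are the only ones of the 13 above 10%.

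In mt-Co1 the spread was 0.226% and 0.243%, and in mt-Nd4 0.0194% and 0.016%, though each shared a large part of its windows. The other 6 mRNAs and both rRNAs lay below 0.01%. Over the 16688 genes with at least 20 counts and a posterior mean in both libraries, 4.75% had a spread above 10%.

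**Figure D2:**
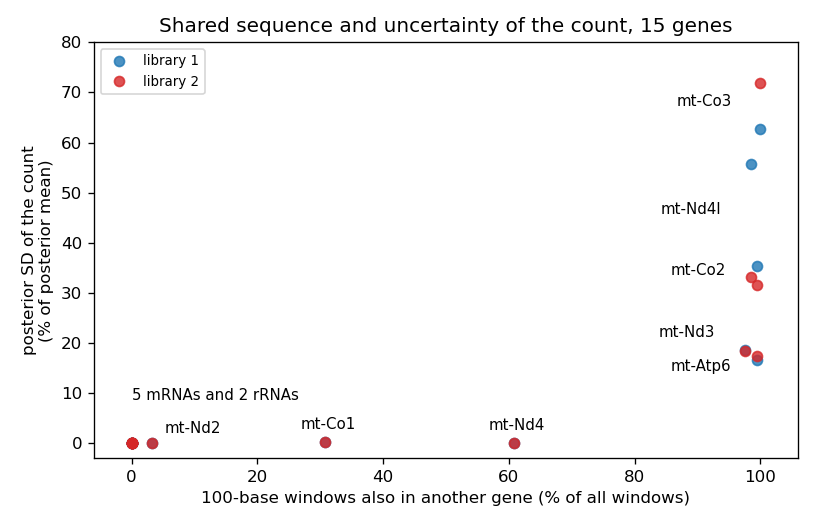
Share of a gene's 100-base windows that occur in another annotated gene (x axis, percent) against the posterior SD of its count as a percentage of the posterior mean (y axis), for the 13 mRNAs and 2 rRNAs in library 1 (blue) and library 2 (red). Only the 5 genes with over 95% of windows shared lie above 10% on the y axis, while mt-Nd4 and mt-Co1 lie near 0.

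The copies themselves held large counts, and 4 of them held more than the mitochondrial gene in both libraries. Gm28437, the copy of mt-Co3, held 80604.87 and 84831.16 expected counts against 16669.13 and 12504.84 on mt-Co3, or 4.84 and 6.78 times as many. Its level of 5747.62 and 5942.10 TPM made it the gene with the fourth highest mean of all. Gm10222, the copy of mt-Nd4l, held 1916.55 and 1437.05 counts, which were 20.7 and 2.56 times those of mt-Nd4l. Gm28438, the copy of mt-Nd3, held 3996.86 and 5447.42 counts, 2.18 and 4.25 times those of mt-Nd3. Gm28661, the copy of mt-Co2, held 20083.87 and 18303.96 counts, 1.35 and 1.03 times those of mt-Co2. By expected counts, the larger part of the reads of these 4 pairs thus stands under the name of a pseudogene. By posterior mean counts this held for the pairs of mt-Co3, mt-Nd4l and mt-Nd3 but not for that of mt-Co2.

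The other copies held less than their counterpart. Gm29216, the copy of the end of mt-Co1, had 14294.01 and 13107.48 counts, 0.307 and 0.306 times those of mt-Co1, and its level per length of 1773.96 and 1597.97 TPM lay above that of mt-Co1 itself. Gm10925, the copy of mt-Atp6, had 9232.03 counts in library 1 and 2512.09 in library 2, 0.128 and 0.0291 times those of mt-Atp6. Gm28439, the copy of the first part of mt-Nd4, had 4.55 and 0 counts. Gm28440, listed as a copy but with no alignment to a chromosome M transcript, had none. No value here shows how many of the reads on a copy came from nuclear transcripts and how many from the organelle, and this was not tested.

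The division within a pair differed between libraries and between the quantifier's own estimates. Of the counts on mt-Co3 and its copy together, mt-Co3 held 17.1% and 12.8% by expected count, but 38.5% and 35.8% by posterior mean. Its mean level by the deposited posterior mean TPM was 2483, against 1031 by TPM, and so above those of mt-Co1 (1455) and mt-Co2 (1689) rather than below them. For mt-Co2 the shares were 42.6% and 49.2% by expected count and 58.5% and 59.9% by posterior mean. For mt-Atp6 they were 88.6% and 97.2% against 76.9% and 79.0%. In all 3 pairs the posterior shares differed less between the libraries than the shares by expected count.

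For mt-Nd4l the share was 4.602% in library 1 and 28.1% in library 2 by expected count, and 12.0% and 29.5% by posterior mean. For mt-Nd3 it was 31.4% and 19.1%, against 33.7% and 20.9%. mt-Co1 held 76.5% and 76.6% by expected count, and the posterior means gave the same shares to that precision. The posterior SD of a gene and that of its copy differed by no more than 0.07 counts in any of the 7 pairs and either library.

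**Figure D3:**
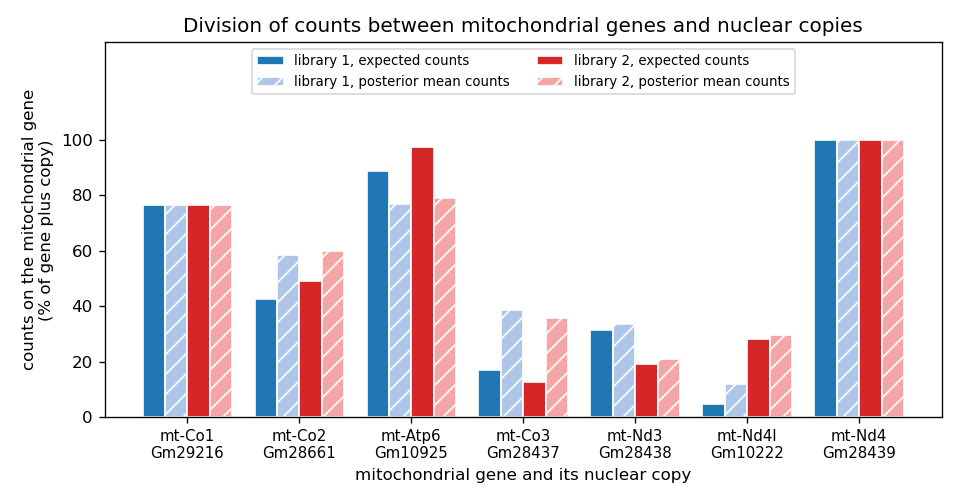
Share of the counts of a mitochondrial gene and its nuclear copy together that the tables place on the mitochondrial gene (percent), for 7 pairs, in library 1 (blue) and library 2 (red), by expected counts (solid) and posterior mean counts (hatched). mt-Co1 and mt-Nd4 have bars of nearly equal height, and the other 5 pairs differ between libraries or between estimates.

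Adding the counts of a gene and its copy removes the division within the pair. In 4 pairs, those of mt-Co3, mt-Nd3, mt-Nd4l and mt-Nd4, the summed expected count was a whole number in both libraries to 2 decimals, for instance 97274 and 97336 for mt-Co3. The sum gives the level that the mitochondrial gene would have if all reads of the pair came from it, per effective length of that gene, and so an upper bound with respect to this copy. This way of counting levels was chosen after the values were seen.

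On the summed counts the order of the mRNAs changed. mt-Co3 reached 6926.13 TPM in library 1 and 6808.16 TPM in library 2, which is 6.66 times its own mean level. Its summed range overlapped that of mt-Atp6, at 6811.18 and 7302.02 TPM. Alone, mt-Co3 stood at 0.197 and 0.123 times the level of mt-Atp6, and with copies at 1.02 and 0.932 times. mt-Co3 directly follows mt-Atp6 on chromosome M, with 1 base shared. How many of the reads on the copy came from mt-Co3 was not tested.

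The other members of complexes I and IV moved less in TPM. mt-Co2 reached 2914.97 and 2951.05 TPM with its copy, 2.18 times its own mean, and mt-Co1 2055.00 and 1853.42 TPM, 1.31 times its own mean. mt-Co1 lay at 1.27 and 0.977 times mt-Co2 alone, and at 0.705 and 0.628 times with the copies added. mt-Nd3 reached 1141.79 and 1294.97 TPM, 4.02 times its own mean, and mt-Nd4l 494.81 and 483.72 TPM, 6.16 times its own mean.

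mt-Nd4l and mt-Nd4 are read from 1 shared mRNA. The level of mt-Nd4 was 45.2 times that of mt-Nd4l in library 1 and 7.78 times in library 2 from the genes alone, and 2.08 and 2.19 times with the copies added. mt-Nd4 itself kept its level, 1029.69 and 1058.29 TPM with its copy. The level of mt-Atp6 with its copy was 1.26 and 1.22 times that of mt-Atp8, against 1.11 and 1.19 times without. From posterior mean TPM it was 0.967 and 0.964 times, and per full length 1.85 and 1.97 times, so the order of these 2 genes depends on how reads and lengths are counted.

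With copies, chromosome M genes held 1.80% of the counts on genes in library 1 and 1.81% in library 2, and 3.72% ± 0.0647 of TPM (SD, n = 2). For this TPM share, unlike the summed levels above, each copy entered with its own deposited TPM, per its own length. The division by complex moved as well. Complex IV took 25.2% and 22.3% of the counts on mitochondrial mRNAs alone, and 43.8% and 41.8% with copies. Complex V went from 27.0% and 30.4% to 21.1% and 22.5%, and complex I from 29.7% and 29.1% to 22.3% and 22.6%. These are shares of counts and so weight long genes more.

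The library ratio, library 2 over library 1, was taken from expected counts scaled by TMM, a scaling over all genes, with an exact 95% interval that covers counting error only. For 11 of the 13 mRNAs the interval excluded 1, with 8 higher in library 2 and 3 higher in library 1. Over all genes with at least 20 counts in the libraries together, 40.0% had such an interval. Most of the mRNAs have far more counts than that, and over genes with at least 5000 counts the share was 64.1%, against 9 of the 11 mRNAs with as many. An interval that excludes 1 shows that counting error does not cover the difference, with the division of reads taken as given. It leaves out the doubt in that division, which is large for the 5 mRNAs with over 95% of windows shared. All 5 are among the 11. It does not show a difference beyond that between pools, whose coefficient of variation over genes was 9.79%.

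By size, 3 of the 13 mRNAs lay beyond 1.2-fold in either direction, against 29.5% of genes with at least 20 counts. Among those with at least 5000 counts it was 1 of 11, mt-Co3, against 2.77% of all such genes. mt-Nd4l was 6.12-fold higher in library 2 (95% interval 4.90 to 7.71). mt-Nd3 was 1.43-fold higher in library 1 (1.33 to 1.53), and mt-Co3 1.33-fold higher in library 1 (1.30 to 1.36). All 3 have over 95% of their windows in a copy, and their intervals leave out the doubt in dividing reads. From posterior mean counts the log2 ratio of mt-Nd4l was 1.29, against 2.61, and that of mt-Co3 -0.10, against -0.41.

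The other 10 mRNAs had ratios between 0.92 and 1.198. mt-Atp6 and mt-Co2 stood at the upper end, at 1.198 (1.19 to 1.21) and 1.19 (1.17 to 1.22), and mt-Co1 at the lower end, at 0.92 (0.908 to 0.932). mt-Atp8, with no annotated copy, had 1.13 (1.10 to 1.15). mt-Nd5 at 0.995 (0.970 to 1.02) and mt-Nd6 at 0.954 (0.904 to 1.01) had intervals that include 1. Of the rRNAs, mt-Rnr2 had 1.03 (1.02 to 1.05) and mt-Rnr1 0.907 (0.880 to 0.935).

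With the copies added, no mRNA remained beyond 1.2-fold. mt-Nd4l had 2009 counts in library 1 and 1999 in library 2, a ratio of 0.997 (0.936 to 1.06). mt-Co3 had a ratio of 1.00 (0.993 to 1.01). mt-Nd3 turned from higher in library 1 to higher in library 2, with 5829 and 6730 counts and a ratio of 1.16 (1.12 to 1.198). The ratios of mt-Co2 and mt-Atp6 came down to 1.03 (1.02 to 1.05) and 1.09 (1.08 to 1.10), and that of mt-Co1 stayed at 0.92 (0.909 to 0.930).

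In 5 pairs the gene and its copy had ratios on opposite sides of 1, and in that of mt-Co1 they lay on the same side. Gm10925 had a ratio of 0.273 (0.261 to 0.285) beside mt-Atp6 at 1.198, and Gm10222 0.751 (0.701 to 0.804) beside mt-Nd4l at 6.12. Gm28438 had 1.37 (1.31 to 1.42) beside mt-Nd3 at 0.701. Gm28437 had 1.05 (1.04 to 1.06) beside mt-Co3 at 0.751, and Gm28661 0.913 (0.895 to 0.931) beside mt-Co2 at 1.19. Over the 13 mRNAs the median log2 ratio was 0.07 alone and 0.05 with copies, and the range shrank from between -0.51 and 2.61 to between -0.12 and 0.21. Over all genes with at least 5000 counts the median was 0.05 and the central 95% lay between -0.17 and 0.26.

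**Figure D4:**
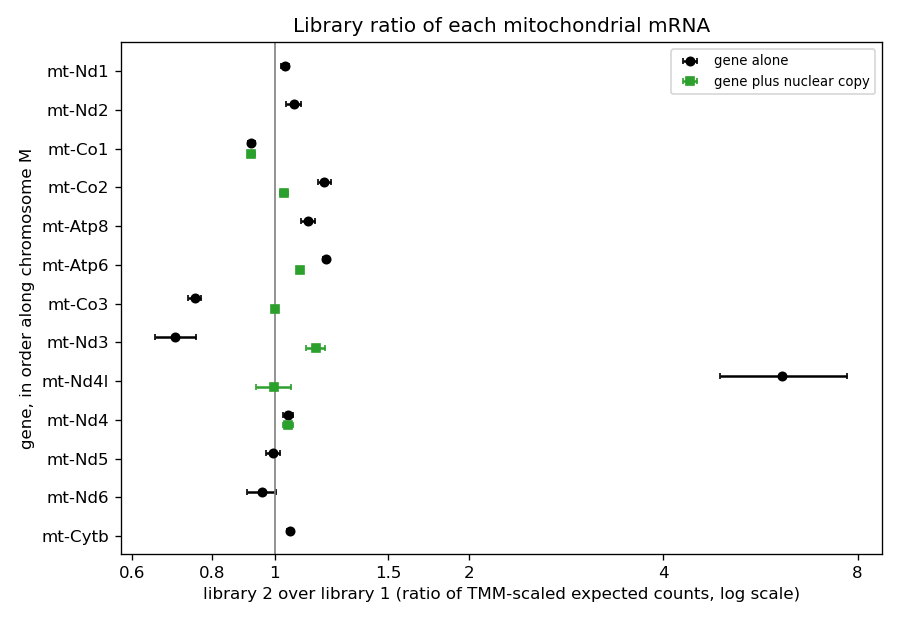
Ratio of library 2 to library 1 (log axis) for the 13 mitochondrial mRNAs, from TMM-scaled expected counts. The exact 95% intervals cover counting error and not the doubt in dividing reads. Black circles are the gene alone and green squares the gene plus its nuclear copy, drawn for the 7 genes that have one; mt-Nd4l, mt-Nd3 and mt-Co3 stand away from 1 alone, and with copies every ratio lies between 0.92 and 1.16.

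The nuclear genes of the same complexes were set beside the mitochondrial ones per length. All 54 nuclear subunit genes of the list were detected, with a median level of 318.6 TPM. In complex V the median of the mitochondrial mRNAs was 12.2 times the median of the 15 nuclear genes in library 1 and 13.6 times in library 2. The corresponding ratios were 7.62 and 8.79 for mt-Cytb against the 9 nuclear genes of complex III, 2.65 and 3.02 for complex IV with 10 nuclear genes, and 1.81 and 1.84 for complex I with 20. With copies added, complex IV rose to 6.22 and 6.28 and complex I to 2.77 and 3.11, while complex V stood at 12.99 and 13.8. In all 4 complexes the mitochondrial median was above the nuclear one in both libraries, with or without copies. Spike-ins took 15.6% of TPM, which lowers both sides alike.

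Single nuclear genes show the scale. In complex V, Atp5b, the catalytic beta subunit, reached 1881 ± 51 TPM (SD, n = 2), above most mitochondrial mRNAs alone, followed by Atp5a1, the alpha subunit, at 744 ± 18.0 and Atp5h, of the stator stalk, at 692 ± 16.9. In complex IV the highest were Cox6c (711 ± 38.4 TPM), Cox6b1 (687 ± 64.0) and Cox4i1 (658 ± 19.7), small subunits around the mitochondrial core. In complex III they were Uqcr10 (435 ± 15.3), Uqcrq (402 ± 17.4) and Uqcrb (361 ± 9.37). In the complex I list they were Ndufa4 (620 ± 25.5), Ndufb8 (377 ± 21.7) and Ndufb9 (328 ± 3.11). The protein of Ndufa4 has since been placed in complex IV, but the gene was kept in the complex I list and its median here.

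The nuclear subunit genes had a median log2 library ratio of -0.02. The interval lay above 1 for 12 of the 54 and below 1 for 14, together 48.1%, against the 40.0% of all genes with at least 20 counts and the 64.1% of those with at least 5000. The mitochondrial mRNAs had a median of 0.07 alone and 0.05 with copies. Over all genes the median was 0.002 for those with at least 20 counts and 0.05 for those with at least 5000. Whether the pools differ in mitochondrial mRNA was not tested.

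**Figure D5:**
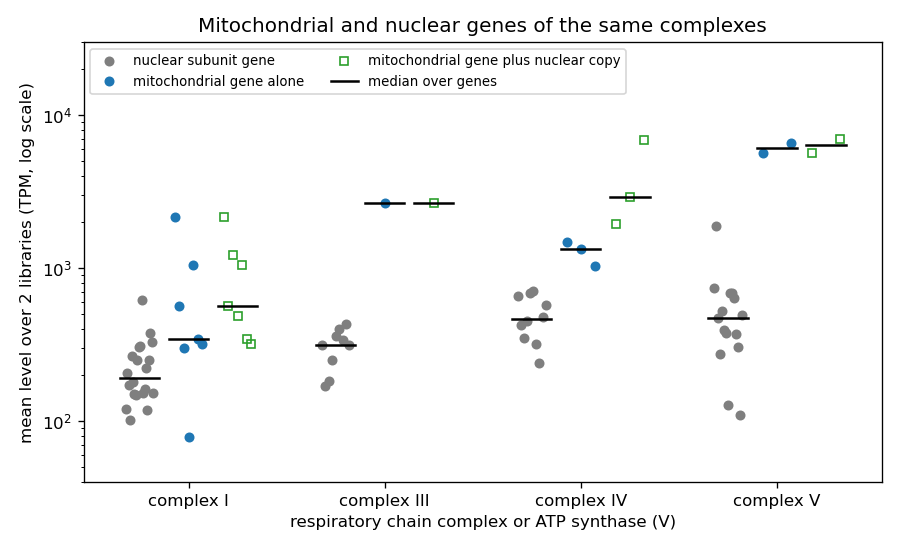
Mean level over the 2 libraries in TPM (log axis) of nuclear subunit genes (grey), mitochondrial genes alone (blue) and mitochondrial genes plus nuclear copy (green squares) in complexes I, III, IV and V; each point is 1 gene and the black line the median. The mitochondrial medians lie above the nuclear ones in each complex, by most in complex V.

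The next list held nuclear genes that replicate mitochondrial DNA or that transcribe, cut, stabilise and modify its RNA. All 41 were detected, from 6.57 to 229 TPM on average with a median of 24.96 TPM, far below most of the mitochondrial mRNAs. Slirp, which binds mitochondrial mRNAs together with Lrpprc, was highest at 229 ± 2.29 TPM (SD, n = 2). Hsd17b10, a subunit of the enzyme that cuts tRNA 5′ ends, stood at 184 ± 1.47, and Ssbp1, the DNA-binding protein of mitochondrial replication, at 140 ± 14.4. Their median log2 ratio was 0.04, with intervals above 1 for 12 genes and below 1 for 5, together 41.5%, near the 40.0% of all genes with at least 20 counts. None of the 41 was below 1 TPM.

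Library 1 held 30849058 expected counts and library 2 31600302, of which 385213 and 403059 lay on chromosome M genes. Markers of the labelled tissue were looked up: all 6 genes of facial mesenchyme and all 3 of ectoderm were detected, with median levels of 91.5 and 51.4 TPM. The lowest of the mesenchyme genes was Tfap2a, at 6.045 TPM on average. Detection alone does not identify the tissue, since the heart markers given below passed the same rule. Embryonic globins of blood cells reached 7094 and 1823 TPM, and the neuronal Tubb3 168 TPM. The 4 heart markers, Myl2, Myl7, Nppa and Actc1, were detected at 1.46 to 43.3 TPM in library 1 and 14.7 to 87.0 TPM in library 2, 2.05 to 10.2 times higher in the latter. Heart muscle is rich in mitochondria, and the part of these cells in the library ratios of the mitochondrial genes was not tested.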

How the data were processed

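Both libraries were quantified by the authors against GENCODE M4 on mm10, as the deposited notes state. The aligner, the quantifier's version, strandedness and read length are not given in the sources used here. The file headers name the columns only. Expected counts are taken here as the authors' estimates with reads of several origins divided among entries, without normalization. TPM is taken as computed by the authors from these and the effective lengths over all entries. Spike-ins are included, since they held 15.6% of TPM. The deposited posterior SD of the count, treated as a score, is the quantifier's doubt in that division.

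Genes were named from GENCODE M21 (GRCm38), matched by identifier without version. The members, the gene lists and the rules were chosen with earlier results of these data known. All 37 genes of chromosome M were described. Of the nuclear genes, the text names copies among the 4 highest by mean TPM or with more counts than their counterpart, and the 3 highest of each list. The other copies, the markers, Tubb3 and Lrpprc were named after their values were seen. The copy list named 9 genes, of which 8 matched. No genome sequence was used, so M21 transcripts were also aligned with BLAST 2.17.0 (at least 95% identity over 100 bases) and compared by exact 100-base windows, the fragment length implied by the effective lengths. Ratios used TMM from edgeR 4.0.16 in R 4.3.3, with counts rounded for exact Clopper-Pearson intervals (SciPy 1.17.1). PCR copies of a molecule were counted as separate reads where present, so intervals cover counting error only. Each library is its own pool of embryos by the labels, and their counts differed with a chi-square statistic of 8.34 for each degree of freedom (18163 genes), so they are not 1 library deposited under both names. DESeq2 1.42.0 size factors, total counts, spike-ins and posterior estimates were alternatives.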

Additional observations from a re-analysis of the deposited data

How the results depend on the processing

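No paired analysis was possible because there is only 1 group. The 15 detected genes were the same number at 0.1 and 10 TPM, with any count and in each library. The share of counts on genes (1.36%) was 1.41% from posterior means, 1.26% over all entries and 1.80% with copies, and 1.35% to 1.38% when each library was left out. The share of TPM (2.63%) was 3.11% without spike-ins and 3.72% with copies, and 2.55% to 2.70% by library. The median mRNA level (1123 TPM) was 1455 from posterior means, 1329.7 without spike-ins and 1954 with copies, and 1058 to 1187 by library. The count of 11 mRNAs whose ratio interval excludes 1 was 3 under the 1.2-fold rule, 9 with spike-ins as the scale and 9 with copies.

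Of 91 single-gene log2 ratios under alternatives, 4 changed sign. With copies added, mt-Co3 went from -0.41 to 0.003, mt-Nd3 from -0.51 to 0.21 and mt-Nd4l from 2.61 to -0.005, since the sum no longer holds the division within the pair. With spike-ins as the scale, mt-Nd1 went from 0.05 to -0.011, by construction of a scale that lowers every log2 ratio by 0.06. Of the others, 83 moved by less than the spread between pools. Of 52 single-gene levels under alternatives, 26 moved by more than their SD. The median log2 ratio lay between 0.0038 (spike-ins) and 0.07. Alignment of transcripts found 11 copies in place of the 8 matched from the list, an alternative chosen after seeing the data. With 2 libraries the spread between pools rests on 1 degree of freedom per gene.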

Other observations

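Alignment of annotated transcripts to those of chromosome M found 4 further nuclear copies outside the stretch on chromosome 1, all with few counts. On chromosome 2, Gm13340 matched all 1545 bases of mt-Co1 at 97.6% identity and held 10.99 and 8.78 expected counts in library 1 and library 2. Its neighbour Gm13341 matched mt-Co2 at 95.9% identity and held 17.34 and 3.73, and Gm13339 matched 510 bases of mt-Nd2 at 96.7% and held 0 and 1.33. On chromosome 13, Gm4076 matched 954 bases of mt-Nd5 at 95.2% and held 1 and 0. Gm28437, Gm10925, Gm28661, Gm10222 and Gm28439, whose bases are identical to those of their counterparts, span from 0 counts (Gm28439 in library 2) to 84831 (Gm28437 in library 2). Their counterparts differ in level, and Gm28439 covers only the start of mt-Nd4.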
